A study of Mus musculus with 4 samples.

Results

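Genes for the TGF-β pathway were followed in Beko cells, a mouse progenitor T-cell line with constitutive Notch activity, after release from a γ-secretase inhibitor (GSI). The set was fixed by name and holds 10 of the 24391 genes of the count table: the ligand Tgfb1, the receptors Tgfbr1, Tgfbr2 and Bmpr1a, the receptor-activated Smad2 and Smad3, the common Smad4, the inhibitory Smad6 and Smad7, and the corepressor Skil. All 10 symbols were found in the table, and 8 of them had enough reads to be tested. RNA-Seq was available for 4 libraries in 2 groups of 2. The GSI group was treated with DAPT for 48 h. The washout group went through the same treatment, after which DAPT was removed by washing and the cells were grown for a further 24 h in its absence. Every library therefore comes from cells that had been exposed to DAPT, and washout cells also differ from GSI cells by a wash and a longer culture. Return of γ-secretase activity, the wash and the additional time in culture cannot be told apart in this comparison. The labels give the dose of DAPT as 10 mg/ml, whereas the published methods give the same figure in μg/ml. The libraries represent a single cell line, and nothing in the labels says that replicates were separate cultures, so p-values measure the spread between these libraries only.

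TGF-β is secreted in a latent form that is held back by its own propeptide. Once released, it binds the type II receptor TGFBR2, which phosphorylates the type I receptor TGFBR1, and TGFBR1 in turn phosphorylates SMAD2 and SMAD3. These join SMAD4, enter the nucleus and regulate transcription, whereas SMAD6, SMAD7 and SKIL restrain the pathway and are themselves induced by TGF-β or BMP signals. In the thymus and in mature T-cells the pathway is known as a brake on proliferation and as a regulator of differentiation. The present data measure RNA and say nothing of ligand, receptor or Smad protein.

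Promoter sequences are given for the ligand and the type II receptor, which fell the most among the well expressed members, and for Smad3 and Smad6, whose promoters hold a motif of the Notch or of the Smad pathway. The sequences come from the RefSeq promoter table and were found once each, letter for letter, in the mm9 genome used by the authors. Each is written 5′ to 3′ on the strand of the gene. Windows cover the 250 bases before the RefSeq start, and that of Smad6 goes on beyond it because the motif spans the start. For Tgfbr2 the window stops at 116084482, short of the GENCODE vM1 start of the gene at 116084383. Capitals mark TGGGAA, the core of the RBPJ motif, or GTCTAGAC, the palindromic Smad-binding element, on either strand. The window of Tgfb1 is chr7:26471771-26472020 on the plus strand, and the windows of Tgfbr2 (chr9:116084482-116084731), Smad3 (chr9:63605802-63606051) and Smad6 (chr9:63869847-63870116) are on the minus strand.
Tgfb1: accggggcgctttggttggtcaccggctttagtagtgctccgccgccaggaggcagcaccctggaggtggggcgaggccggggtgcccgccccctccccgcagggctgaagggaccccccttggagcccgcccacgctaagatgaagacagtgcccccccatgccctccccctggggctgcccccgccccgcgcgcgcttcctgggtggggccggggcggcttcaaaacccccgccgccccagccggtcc
Tgfbr2: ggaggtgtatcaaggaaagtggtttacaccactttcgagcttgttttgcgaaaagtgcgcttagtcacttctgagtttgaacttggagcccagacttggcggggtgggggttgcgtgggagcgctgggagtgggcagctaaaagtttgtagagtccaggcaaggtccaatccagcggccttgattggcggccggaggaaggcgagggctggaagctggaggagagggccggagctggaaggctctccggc
Smad3: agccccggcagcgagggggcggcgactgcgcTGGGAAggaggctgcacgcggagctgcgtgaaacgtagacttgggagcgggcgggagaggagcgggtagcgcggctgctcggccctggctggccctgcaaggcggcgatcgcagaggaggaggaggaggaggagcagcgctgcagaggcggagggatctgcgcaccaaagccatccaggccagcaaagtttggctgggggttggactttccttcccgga
Smad6: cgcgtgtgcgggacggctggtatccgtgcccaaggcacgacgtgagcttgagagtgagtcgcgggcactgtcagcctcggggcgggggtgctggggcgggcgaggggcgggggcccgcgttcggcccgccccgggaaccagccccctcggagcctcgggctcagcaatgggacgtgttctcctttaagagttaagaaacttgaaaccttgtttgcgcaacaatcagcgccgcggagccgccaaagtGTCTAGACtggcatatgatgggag

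The table holds 7 promoter entries for 6 of the members outside chromosome 18, with 250 bases before and 50 bases after the start. TGGGAA was found on either strand in 2 of the 7, Smad3 and Bmpr1a, and in 25.6% of all 32851 promoters of that length. In Smad3 it begins 219 bases before the start. GTCTAGAC was found in 1 of the 7, Smad6, where it begins 4 bases before the start, and in 0.213% of all promoters. The promoters of Tgfb1, Tgfbr1 and Tgfbr2 held neither run of letters in these windows. In the paper, dynamic RBPJ sites, where binding fell under GSI, were mostly distal to gene starts, with the motif TGRGAA. Distal sequence and the TGAGAA form were not searched here. A match describes the sequence and is not evidence of binding.

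Reads counted on genes came to between 13716199 and 36364200 per library, and replicate 1 was the deeper library in both groups. In bulk RNA, fewer cells of a type and less RNA per cell cannot be told apart. The T-lineage identity of the cells was visible in every library: the summed level of 8 markers (Cd3d, Cd3e, Cd3g, Lck, Ptcra, Rag1, Cd8a and Bcl11b) was 3886 and 4443 CPM (counts relative to the TMM-scaled library size) in GSI and 4938 and 4773 CPM upon washout. Rag1 alone gave 1764 and 2368 CPM of this sum in GSI and 2766 and 2555 CPM upon washout. Members of the list did not move together. Ptcra rose, with a log2 fold change of 2.37. By the adjusted p-value Cd3g (0.86) was also higher, while Cd8a (-0.89) and Bcl11b (-0.72) were lower. The B cell list (Ms4a1, Cd79a, Pax5 and Ebf1) summed to between 0.223 and 0.438 CPM, with 3 of its 4 genes at 0. Stromal markers (Col1a1, Col1a2, Col3a1, Dcn and Pdgfra) summed to 3.16 and 3.02 CPM under GSI, then 1.38 and 1.56 CPM after washout, and erythroid markers (Hba-a1, Hbb-b1 and Epor) to 11.8 and 11.0 CPM against 6.26 and 6.40 CPM, all from Epor. Among myeloid markers (Lyz2, Csf1r, Itgam, Mpo and Elane), the sum was 49.1 and 38.2 CPM under GSI, then 5.49 and 4.91 CPM after washout. Nearly all of this was Itgam, and Lyz2 and Elane were at 0 in every library. The mast cell list summed to 175.7 and 77.4 CPM in GSI and to 9.34 and 2.23 CPM upon washout, and came from Cpa3 alone, with Ms4a2, Fcer1a, Mcpt4 and Cma1 at 0 throughout.

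Most of the set was lower upon washout. Of the 8 members tested, Tgfb1, Tgfbr2 and Skil fell and none rose at the thresholds of the study, namely 0.05 for the adjusted p-value and 1 for the size of the log2 change. Among all 12266 genes tested, 11.7% fell and 7.74% rose by this rule (1437 and 950 genes, 19.5% together). With the total count as the only scaling the split was 1963 lower (16%) and 586 higher (4.78%), and the median log2 fold change of all genes shifted by -0.20. By the adjusted p-value alone, 6 of the 8 members were lower and none was higher, beside 25.4% of all genes tested that were lower and 27% that were higher (52.5% in either direction). The libraries of the groups did not overlap for any of the 8: 7 members were lower in both washout libraries than in both GSI libraries (39.1% of all genes tested), and Smad2 was higher in both (38.2%). The median log2 fold change was -0.81 over these 8 members and -0.01 over all genes tested, and 7 of the 8 had a value below 0, as did 50.5% of all genes. Smad7 and Bmpr1a were too low to be tested.

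**Figure D1:**
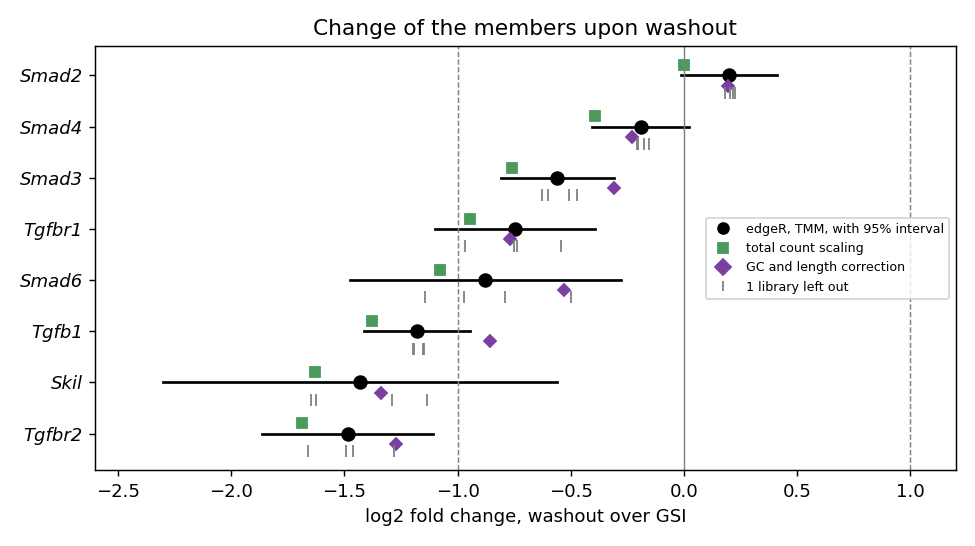
Log2 fold change of the 8 tested members, washout over GSI (horizontal axis), with black points and 95% intervals from edgeR, green squares for scaling to the total count, purple diamonds for the GC and length correction, and grey ticks for fits with 1 library left out. Dashed lines mark the threshold of 1 in either direction; Tgfbr2, Skil and Tgfb1 lie beyond it and the interval of Smad2 reaches across 0.

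The ligand gene Tgfb1 (chr7:26472021-26490096, mm9, plus strand) had 65.8 and 62.9 CPM under GSI, then 28.7 and 28.1 CPM after washout. Replicates lay close together in both groups, and the groups were far apart. Tgfb1 was 2.26-fold lower upon washout and its log2 fold change was -1.18 (standard error 0.0968, adjusted p = 0.000438 in edgeR's quasi-likelihood test), and 10.3% of all genes tested had a lower value. Its exons are rich in GC (61.5%). Across the 10962 genes tested whose GC content was known, the log2 fold change had a median of 0.12 below 45% GC, 0.01 from 45 to 55% and -0.21 at 55% or more. When GC content and exon length were corrected for, in a fit chosen after seeing the data, the log2 fold change of Tgfb1 was -0.86 (adjusted p = 0.000667 in the same test), which is short of the threshold of 1.

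Tgfbr2 encodes the type II receptor, which binds the ligand first. It lies at chr9:115993415-116084383 on the minus strand. Its levels were 40.5 and 39.3 CPM under GSI, then 12.5 and 16.4 CPM after washout, the lowest GSI library being far above the highest washout library. With a 2.80-fold decrease, Tgfbr2 had a log2 fold change of -1.49, the lowest of the set in this fit (standard error 0.155, adjusted p = 0.000777 in edgeR's quasi-likelihood test). It was past both thresholds in the other normalizations and filters, in the fits with 1 library left out and after the GC and length correction, from -1.69 with the total count alone to -1.27 with that correction. Skil had a lower value than Tgfbr2 in the latter fit (-1.34) and in the same correction with the replicate number as a block (-1.39). It was also lower than Tgfbr2 without GSI replicate 2 (-1.62) or washout replicate 1 (-1.65).

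The type I receptor gene Tgfbr1 (chr4:47366094-47427803, plus strand) had 167.7 and 167.0 CPM in GSI. Upon washout it had 113.7 CPM in replicate 1 and 85.3 CPM in replicate 2, so the spread was wider there than in GSI. Tgfbr1 was 1.68-fold lower, or -0.75 on the log2 scale (standard error 0.146, adjusted p = 0.00678 in the same test). It was therefore lower by the adjusted p-value but not past the threshold on the fold change. Bmpr1a, a type I receptor for BMP ligands, had 2 and 1 counts under GSI and 0 in both washout libraries. These values are at or under 3 counts per library, the limit used for detection (0.0881 to 0.223 CPM), and no fold change is given. Exons of Bmpr1a also overlap those of Gm17110 on the other strand.

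The receptor-activated Smads moved unequally. Smad2 had 103.8 and 99.4 CPM under GSI, then 116.9 and 116.7 CPM after washout. The log2 fold change of Smad2 was 0.20 with a 95% interval from -0.01 to 0.41 (adjusted p = 0.0984 in edgeR's quasi-likelihood test), and 0.00 with the total count alone. Smad3, which shares the activating receptor with Smad2 and binds DNA directly, had 163.7 and 152.1 CPM under GSI, then 101.3 and 113.5 CPM after washout. Its difference of -0.56 on the log2 scale (standard error 0.103, adjusted p = 0.00544 in the same test) corresponds to a 1.47-fold decrease, short of the threshold on the fold change. After the GC and length correction the log2 fold change of Smad3 was -0.31 (adjusted p = 0.0225). Smad4, the partner of both, had 92.5 and 89.8 CPM under GSI, then 80.9 and 78.7 CPM after washout. The log2 fold change of Smad4 was -0.19, with a 95% interval from -0.40 to 0.02 (adjusted p = 0.113). It was -0.39 with the total count alone (adjusted p = 0.0119) and -0.23 after the GC and length correction (adjusted p = 0.0293), all from edgeR's quasi-likelihood test.

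Of the inhibitors, Smad6 (chr9:63800953-63869866, minus strand) counteracts mainly BMP signals. It had 17.9 and 11.3 CPM under GSI, then 8.46 and 7.52 CPM after washout. The GSI replicates differed more from each other than the washout replicates did. The log2 fold change of Smad6 was -0.88 (standard error 0.246, adjusted p = 0.0254 in edgeR's quasi-likelihood test), and it depended on single libraries and on the scaling. Without GSI replicate 1 it was -0.50 (adjusted p = 0.163), without GSI replicate 2 it was -1.14 and past both thresholds, as it was with the total count alone (-1.08). After the GC and length correction it was -0.53 (adjusted p = 0.122). Smad7, the inhibitory Smad that blocks TGFBR1, was nearly absent, with 0 counts in both GSI libraries and 0 and 2 counts after washout. No difference was detectable at this depth.

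Skil encodes SnoN, a corepressor that binds the Smad complex. It lies at chr3:30993980-31021499 on the plus strand and was lowly expressed, with 78 and 25 counts under GSI (2.44 and 1.71 CPM), then 29 and 9 counts after washout (0.852 and 0.670 CPM). Both washout libraries were below both GSI libraries. The log2 fold change of Skil was -1.43 (standard error 0.359, adjusted p = 0.0171 in edgeR's quasi-likelihood test), a 2.69-fold decrease with a 95% interval from -2.30 to -0.56 on the log2 scale. With DESeq2 the adjusted p-value was 0.0644. In edgeR's test, leaving out GSI replicate 1 gave 0.139, leaving out washout replicate 1 gave 0.0548 and leaving out washout replicate 2 gave 0.0590, so the call for Skil rests on each of these libraries.

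Levels of different genes were compared per exon length, as RPKM (CPM per kilobase of exon in GENCODE vM1). In GSI the highest members were Smad2, with a mean of 28.6 ± 0.873 RPKM (SD, n = 2), and Smad3, with 28.5 ± 1.49, and they overlapped. Next came Tgfbr1 (25.6 ± 0.0705), Tgfb1 (25.2 ± 0.803) and Smad4 (24.6 ± 0.526), where each neighbor in this order overlapped the next. Tgfbr2 (4.93 ± 0.108) and Smad6 (4.65 ± 1.48) were lower and overlapped each other, and Skil was the lowest of the tested members at 0.214 ± 0.0528. Upon washout the order was Smad2 (32.9 ± 0.0253), Smad4 (21.5 ± 0.422), Smad3 (19.4 ± 1.56), Tgfbr1 (15.2 ± 3.08), Tgfb1 (11.1 ± 0.168), Smad6 (2.55 ± 0.213), Tgfbr2 (1.78 ± 0.340) and Skil (0.0785 ± 0.0133). No neighbors in that order overlapped. In both groups the type II receptor was the scarcer of the pair of TGF-β receptors.

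**Figure D2:**
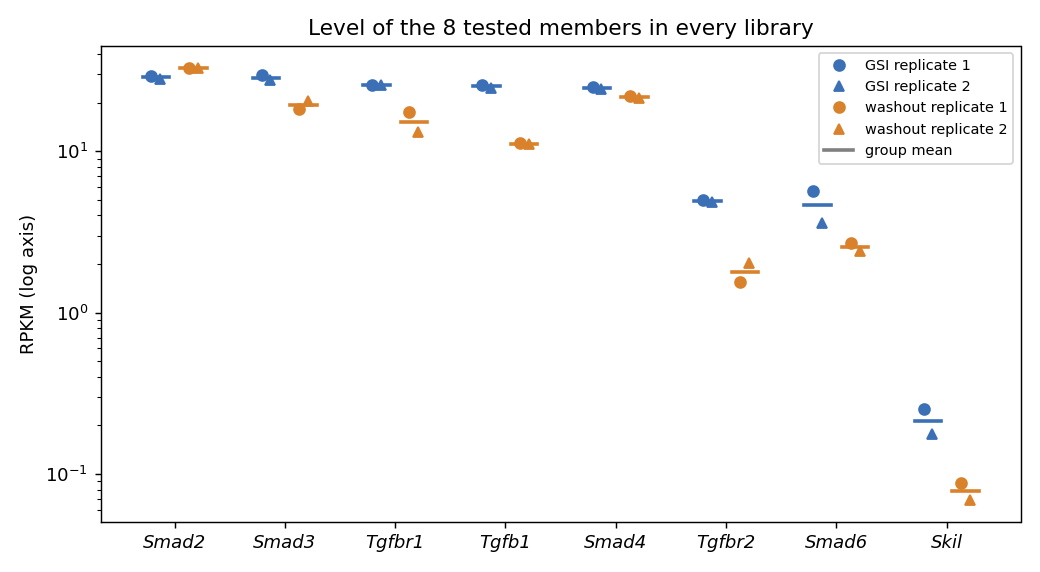
RPKM of the 8 tested members (vertical log axis) in each library, with blue symbols for GSI, orange symbols for washout, circles for replicate 1, triangles for replicate 2 and lines for group means. Tgfb1, Tgfbr1, Smad2, Smad3 and Smad4 lie between 24.2 and 29.5 RPKM in GSI and further apart upon washout.

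Ratios of a pair of genes within one library do not depend on the scaling between libraries. They are given per exon length and without a p-value, since 2 libraries against 2 cannot go below an exact permutation p of 0.333 (two-sided). Smad3 over Smad2 was 1.01 and 0.980 in GSI and 0.555 and 0.622 upon washout, a difference of -0.76 on the log2 scale. Within the group, the log2 ratio had an SD of 0.0313 in GSI and 0.117 upon washout, so the shift was larger than the spread between replicates. Tgfbr2 over Tgfbr1 was 0.195 and 0.190 in GSI and 0.0887 and 0.155 upon washout. The shift of -0.71 on the log2 scale lies beside an SD of 0.570 between the washout libraries, and all of them stayed below GSI. Smad6 over Smad4 was 0.229 and 0.149 in GSI and 0.124 and 0.113 upon washout, with an SD of 0.436 in GSI. Such ratios do not show which member of a pair was stable, and they keep any trend with GC content. After the GC and length correction the log2 fold change was -0.31 for Smad3 and 0.19 for Smad2. It was then -1.27 for Tgfbr2 and -0.77 for Tgfbr1, and -0.53 for Smad6 and -0.23 for Smad4.

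**Figure D3:**
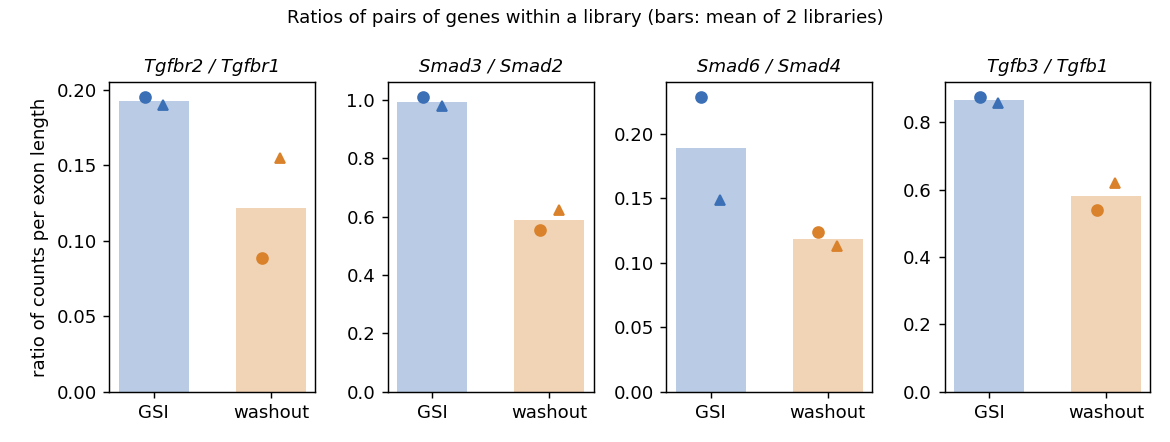
Ratio of counts per exon length for 4 pairs of genes within each library, with bars for the mean of 2 libraries, circles for replicate 1 and triangles for replicate 2, in GSI (blue) and upon washout (orange). All 4 ratios are lower in both washout libraries, and the replicates of Tgfbr2 / Tgfbr1 upon washout and of Smad6 / Smad4 in GSI lie apart.

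The wider pathway was taken from lists of 63 genes chosen by role. Of the 41 that could be tested, 6 fell and 1 rose past both thresholds, beside 11.7% and 7.74% of all genes tested. With the total count alone 11 fell and 1 rose, beside 16% and 4.78% of all genes under that scaling. The median log2 fold change of the 41 was -0.37. By the adjusted p-value alone, 19 were lower and 3 higher, where the shares over all genes were 25.4% and 27%. Another 22 were too low to be tested, and 10 of these had 0 counts in every library.

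Among 13 further ligands only Tgfb3, Gdf11 and Bmp7 could be tested. Tgfb3, which signals through the same receptors as Tgfb1, had 76.2 and 71.3 CPM under GSI, then 20.6 and 23.1 CPM after washout. Its fall of 3.4-fold, or -1.76 on the log2 scale (standard error 0.110, adjusted p = 0.000315 in edgeR's quasi-likelihood test), was the lowest value among the genes of the wider pathway. Per exon length, Tgfb3 over Tgfb1 was 0.875 and 0.856 in GSI and 0.541 and 0.620 upon washout. Bmp7 had the highest level per exon length of these ligands (39.9 RPKM in GSI, 39.5 upon washout), with 153.3 and 167.2 CPM in GSI, 149.8 and 167.9 CPM upon washout and a log2 fold change of -0.01 (standard error 0.106). Its value was 0.24 after the GC and length correction (adjusted p = 0.0397 in edgeR's test) and -0.21 with the total count alone. Of the type I receptors known for BMP7, Acvr1 and Bmpr1b had 0 counts in every library, next to the trace of Bmpr1a described above. Tgfb2, Inha, Inhba, Inhbb, Nodal, Mstn, Gdf15, Bmp2, Bmp4 and Bmp6 were too low for a test.

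Of 10 further receptors 7 were tested and, beside 11.7% of all genes tested, 1 of them fell. This was Eng, which encodes the coreceptor endoglin, with 5.63 and 3.50 CPM under GSI, then 2.53 and 1.71 CPM after washout. The log2 fold change of Eng was -1.09 (adjusted p = 0.0378 in edgeR's quasi-likelihood test). After the GC and length correction it was -0.77 (adjusted p = 0.112 in the same test). With 1 library left out it was between -1.43 and -0.69. It was short of the threshold without GSI replicate 1 (-0.69) and without washout replicate 2 (-0.86). The gene shares exon sequence with Ak1 and Fpgs, so its reads are uncertain. All 7 tested receptors had a log2 fold change below 0, Eng included, beside 50.5% of all genes, but that of Acvrl1 (-0.30) was 0.18 without GSI replicate 2 and 0.28 without washout replicate 1. Of 3 other Smads, Smad9 was too low to be tested and Smad1 and Smad5 gave no call. Smad1, which carries BMP signals, had 4.59 and 5.69 CPM under GSI, then 6.90 and 7.74 CPM after washout, or 0.52 on the log2 scale (standard error 0.217, adjusted p = 0.0899 in the same test).

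Genes for latency and activation of the ligand gave 2 falls among 6 tested and no rise. For this list and those that follow, the shares over all genes tested were 11.7% lower and 7.74% higher. Furin, the protease that cleaves the propeptide from TGF-β, had 72.3 and 56.5 CPM under GSI, then 22.1 and 22 CPM after washout (log2 fold change -1.55, standard error 0.143, adjusted p = 0.000566 in edgeR's quasi-likelihood test). Ltbp4, a binding protein that tethers latent TGF-β to the matrix, went from 14.2 and 13.6 CPM to 5.49 and 7.66 CPM (-1.11). After the GC and length correction the log2 fold change was -1.06 for Furin and -0.61 for Ltbp4. That of Ltbp4 was -0.85 without washout replicate 1. Among 16 repressors and turnover factors, Bambi fell and Strap rose. Bambi, a pseudoreceptor that blocks type I receptors, had 21.6 and 20.4 CPM under GSI, then 8.58 and 11.1 CPM after washout, with a log2 fold change of -1.11 and -0.92 without washout replicate 1. Strap, a WD-repeat protein that strengthens SMAD7 binding to the receptor and also belongs to the SMN complex, had 150.7 and 131.6 CPM under GSI, then 370.1 and 279.8 CPM after washout. The log2 fold change of Strap was 1.2 (standard error 0.158, adjusted p = 0.00158 in edgeR's quasi-likelihood test), and 0.99 without washout replicate 1. Of 7 partners and adaptors tested, Runx3 fell. This Runt factor, a partner of Smad3 known for its role in CD8 T-cells, had 20.2 and 19.0 CPM under GSI, then 5.79 and 7.14 CPM after washout (-1.62, standard error 0.170). With the GC and length correction Runx3 was at -1.25.

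**Figure D4:**
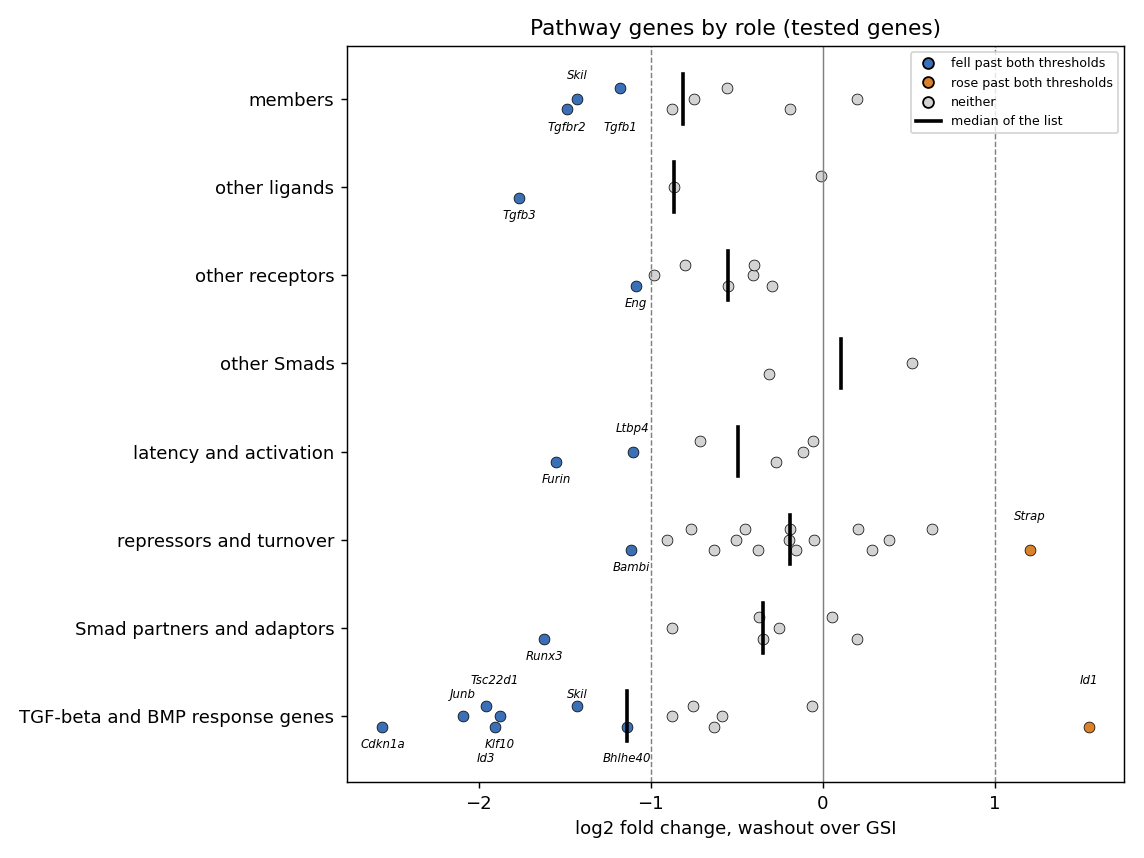
Log2 fold change, washout over GSI (horizontal axis), of the tested genes in the set and in 7 lists of pathway genes by role, with blue points for genes that fell past both thresholds, orange for genes that rose, grey for neither, and a black bar for the median of each list. Tgfb3, Furin and Runx3 lie furthest to the left among the wider pathway genes; Strap and Id1 are the 2 that rose.

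Genes known to respond to TGF-β or BMP were examined as a list of 17 genes, chosen with earlier results of these data known. Of the 13 tested, 7 fell and 1 rose past both thresholds, beside 11.7% and 7.74% of all genes. The median log2 fold change of the 13 was -1.14. Ctgf, Cdkn2b and Tgfbi, with at most 1 count in any library, and Smad7 were too low to be tested. Nedd9 (-0.75) and Pmepa1 (-0.64) were lower by the adjusted p-value but short of the threshold. After the GC and length correction Pmepa1 was at -0.34. Leaving out Skil and Smad6, which belong to the set itself, 6 of 11 fell and 1 rose. With 1 library left out, Skil and Bhlhe40 did not keep their call in every fit. Cdkn1a, Klf10, Tsc22d1, Junb and Id3 did. Cdkn1a, which encodes the cell cycle inhibitor p21 and is also a p53 target, had 118.1 and 124.3 CPM under GSI, then 22.2 and 18.5 CPM after washout. At -2.56 (standard error 0.121), its log2 fold change was the lowest of the list. Klf10, an early gene induced by TGF-β, had 231.4 and 201.5 CPM before washout, 62.3 and 55.3 CPM after it, and changed by -1.88 (log2). Tsc22d1, another TGF-β inducible gene, went from 12.8 and 11.4 CPM to 3.38 and 3.05 CPM (-1.90). Junb, an AP-1 subunit and immediate early gene, had GSI libraries that lay apart at 64.1 and 37.1 CPM, against 11.5 and 12.6 CPM upon washout (-2.09). Bhlhe40 had 29.2 and 30.4 CPM under GSI, and washout libraries that lay apart at 8.52 and 19.5 CPM. Its log2 fold change was -1.14, with values from -1.79 without washout replicate 2 to -0.60 without washout replicate 1. The gene shares exon sequence with 0610040F04Rik on the other strand.

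The Id genes, classical BMP targets that encode inhibitors of E proteins, went separate ways. Id1 rose: its GSI libraries had 7.72 and 6.92 CPM and its washout libraries 19.7 and 23.5 CPM, that is by 1.55 on the log2 scale (standard error 0.164, adjusted p = 0.000798 in edgeR's quasi-likelihood test). Id3 fell, its GSI libraries having 21.3 and 21.8 CPM and its washout libraries 6.20 and 4.69 CPM, and had a log2 fold change of -1.96 (standard error 0.180). Id2 had 123.2 and 83.1 CPM under GSI, then 67.3 and 70.5 CPM after washout, that is -0.59 on the log2 scale, which is lower by the adjusted p-value (0.0365 in the same test) but short of the threshold. Without GSI replicate 1, the higher GSI library, Id2 was at -0.28 (adjusted p = 0.177 in edgeR's test), and without washout replicate 1 the adjusted p-value was 0.0512. Itgae, which encodes the TGF-β induced integrin CD103, was low in all libraries, between 1.70 and 2.98 CPM, and the groups overlapped.

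The mast cell gene Cpa3 and the myeloid integrin gene Itgam fell past both thresholds, as did 11.7% of all genes tested. Tgfb1, Tgfbr2 and 7 of the 13 tested response genes, Skil included, were also among these. Cpa3 had a log2 fold change of -4.30 and Itgam of -3.08, while 4 of the 5 mast cell markers and 2 of the 5 myeloid markers were at 0 in all 4 libraries. Of the other myeloid markers, Mpo had 7 and 2 counts under GSI, then 0 in both washout libraries, and Csf1r had 6 and 2 counts, then 4 and 2. Whether either gene bears on the levels of the TGF-β pathway was not tested.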

How the data were processed

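The authors aligned the trimmed RNA-Seq reads to mm9 with HISAT2 (2.2.1 in the submitters' processing notes) and used summarizeOverlaps with an iGenomes GTF file to count them by gene. Deposited were raw counts, one column per library, without normalization or pooling. The strand setting and overlap mode of the counting are not given in the sources used here, so genes that share exons with a neighbor are uncertain.

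The test was that of edgeR 4.0.16, run in R 4.3.3 (filterByExpr, TMM, quasi-likelihood test without covariates, Benjamini-Hochberg adjustment over all 12266 genes tested). CPM values use the TMM-scaled library size. Standard errors were derived from the log2 fold change and the F statistic, and 95% intervals use the degrees of freedom of the test. A floor of 3 counts covers counting error only, as do all limits drawn from depth. The GSI libraries held 29671401 and 13716199 counts, the washout libraries 36364200 and 14451995. Replicates differed by more than sampling noise (chi-square per degree of freedom of 17.2 for GSI and 27.7 for washout). Positions, exon lengths and GC content come from GENCODE vM1 on the same build, which matched 20641 of the 24391 symbols and all 10 members. Promoters come from the RefSeq table (GRCm38.p6) and were matched to mm9 by sequence. Ccn2 was looked up under its older symbol Ctgf.

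The members and lists were chosen with earlier results of these data known, and 3 listed genes (1 response gene and 2 markers) were taken out of their lists afterwards and are not reported here. The text names all members, every listed pathway gene past both thresholds or, where a list had none, its largest change, the marker genes, and the 3 genes of at least 3 log2 CPM nearest in pattern to Smad2 and to Tgfbr2, the extremes of the set. Other pathway genes were named after their values were seen. Alternatives were DESeq2 1.42.0, RLE factors, the total count alone, other filters, the replicate number as a block, the adjusted p-value alone, glmTreat, leaving out each library, and correcting for GC content and for length of the exons, added after seeing the data, over the 10962 genes (89.4%) that have these features. The functions were tested on simulated counts.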

Additional observations from a re-analysis of the deposited data

How the results depend on the processing

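Limits. With 2 libraries per group, leaving 1 out leaves a lone library that is assumed to vary like the other group, and depth limits Skil, Smad7 and Bmpr1a. Across the alternatives, 7 of the 8 tested members kept a log2 fold change below 0 (6 of 7 with at least 10 counts in every library, where Skil could not be tested), and Smad2 kept one above 0, at 0.00 with the total count. The median over the members was between -1.01 and -0.63. Tgfbr2, Tgfbr1, Smad2, Smad3 and Smad4 kept their call in each of these fits other than glmTreat and the adjusted p-value alone, which use another rule.

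Tgfb1 was short of the threshold after the GC and length correction, alone (-0.86) or with the replicate number as a block (also -0.86). Skil was not called with DESeq2 (-1.42) and had values between -1.65 and -1.13 with 1 library left out. Smad6 was called with the total count (-1.08), and its values were between -1.14 and -0.50 with 1 library left out. Scaling by total count gave 586 higher genes, and 11 wider pathway genes were lower. Without the fold threshold there were 3315 higher and 3120 lower genes, 6 members were lower, 3 wider pathway genes were higher and 19 lower, and 11 response genes were lower. With glmTreat at a threshold of 1, 308 genes were higher and 501 lower, 1 member was lower, 0 wider pathway genes were higher and 3 lower, and 5 response genes were lower. With 1 library left out, Skil, Bhlhe40, Eng, Ltbp4, Bambi and Strap lost their call in at least 1 fit. Smad6, Tgfbr3, Bmpr2 and Ep300 gained a call in at least 1 of these fits. The causes of these differences were not tested.

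Replicate block. Replicates share a number in the labels, but nothing says that a number marks a shared culture or day. The deviations of same-numbered libraries correlated at 0.497 over the genes tested and at 0.605 over those of at least 3 log2 CPM. With the replicate block 981 genes were higher and 1576 lower, and 3 members were called, as without it. The adjusted p-values of Smad2 (0.0329) and Smad4 (0.0365) were then under 0.05 in edgeR's quasi-likelihood test, at log2 fold changes of 0.20 and -0.19.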

Other observations

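The genes nearest in pattern to Tgfbr2, the member with the lowest log2 fold change in the fit with TMM factors, were Sema4c, Dbp and Dgka, compared by the root mean square difference of log2 CPM deviations over 4 libraries among 9287 genes. Sema4c, a semaphorin, differed from Tgfbr2 by 0.0133 on the log2 scale and had a log2 fold change of -1.52 (standard error 0.196). Dbp, a clock-controlled transcription factor, differed by 0.05 and had a log2 fold change of -1.41. Dgka, a diacylglycerol kinase that dampens T-cell receptor signals, differed by 0.0551 and had a log2 fold change of -1.58. Nearest to Smad2, the only member with a log2 fold change above 0, were Rp9, Terf2 and Fam220a, with differences of 0.00759, 0.00928 and 0.0121 and log2 fold changes of 0.19, 0.18 and 0.21. With 4 libraries in 2 groups, such likeness mainly describes the size of the change and the offset between replicates.

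Several Smad regulators and receptors had an adjusted p-value under 0.05 in edgeR but a log2 fold change short of the threshold. Ski, the paralog of Skil, had 17.5 RPKM in GSI against 0.214 RPKM for Skil, with 101.5 and 93.1 CPM under GSI, then 72.0 and 70.4 CPM after washout (-0.45, standard error 0.0935). After the GC and length correction Ski was at -0.10 (adjusted p = 0.378 in edgeR's quasi-likelihood test), and without GSI replicate 1 the adjusted p-value was 0.0711. Rnf111, the ubiquitin ligase that degrades SKI and SnoN, had 90.7 and 93.1 CPM under GSI, then 54.9 and 52.9 CPM after washout (-0.77). Usp15, a deubiquitinase of receptor-activated Smads, had 88.2 and 93.1 CPM under GSI, then 120.8 and 116.0 CPM after washout (0.39). Its value was 0.22 after the GC and length correction and 0.19 with the total count alone, with adjusted p-values of 0.0742 and 0.120 in edgeR's test, and without GSI replicate 1 or 2 they were 0.107 and 0.0537. Bmpr2 had 84.2 and 79.8 CPM under GSI, then 54.0 and 39.5 CPM after washout (-0.80). It was past both thresholds with the total count alone and without washout replicate 1 (-1.05). The betaglycan gene Tgfbr3 had 21.6 and 23.4 CPM under GSI, then 12 and 10.6 CPM after washout (-0.98). Tgfbr3 was past both thresholds with the total count alone (-1.18), with at least 10 counts in every library (-1.02), without GSI replicate 1 (-1.05) and without washout replicate 1 (-1.08).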
